A study of Mus musculus with 12 samples.

Results

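The Ifit genes encode interferon-induced proteins with tetratricopeptide repeats, and the 6 that are listed by symbol in the deposited table, out of 54532 genes in all, were Ifit1, Ifit2, Ifit3, Ifit3b, Ifit1bl1 and Ifit1bl2. They were chosen by name, and all 6 stand next to each other on mouse chromosome 19. RNA was measured in 12 libraries, 6 per group, from tumours grown for 14 days in the skin of male mice aged 8 to 12 weeks. The tumours were made from B16F10 cells, a pigmented melanoma line that was wild type, and every host carried 1 copy of R26CreERT2, a Cre recombinase expressed from the Rosa26 locus and switched on by tamoxifen. Trex1 encodes an exonuclease that degrades DNA in the cytosol. Hosts of the Ctrl group had 1 floxed and 1 wild-type copy of it, and hosts of the iKO group had 2 floxed copies. All hosts received 1 mg of tamoxifen on each of 3 days starting at day 5. The Ctrl group is thus itself a group with Cre, tamoxifen and a single floxed allele, and Rosa26 is active in most tissues, so the host cell type in which Trex1 was lost is not fixed by the model. The comparison concerns the effect of deleting Trex1 from host cells on RNA of the sorted tumour, read here for the Ifit genes.

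Type I interferons bind a receptor of the chains Ifnar1 and Ifnar2 on almost every nucleated cell, and the kinases Jak1 and Tyk2 then activate the factor ISGF3, which holds Stat2 and Irf9. ISGF3 binds a DNA element, the interferon-stimulated response element, in the promoters of many antiviral genes, and Ifit genes are among its best known targets. Ifit1 binds messenger RNA whose cap lacks ribose methylation and blocks its translation, Ifit2 and Ifit3 join it in complexes and limit virus growth, and several Ifit proteins bind the translation initiation factor eIF3. Ifit3b is a close copy of Ifit3, and Ifit1bl1 and Ifit1bl2 are copies related to Ifit1 about which less is known.

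The promoter sequences are shown first because the members were measured as 1 family and their promoters show where they are alike. RefSeq promoter windows (GRCm38.p6, 250 bases before to 50 after each annotated start) were at hand for all 6 genes. They were searched on both strands for the core of the interferon-stimulated response element, GAAA, any 2 bases and GAAA again, which on the other strand reads TTTC, any 2 bases and TTTC. Matches are in capitals below, in stretches written 5′ to 3′ on the strand of the gene.
Ifit1, chr19:34640760-34640838, plus strand: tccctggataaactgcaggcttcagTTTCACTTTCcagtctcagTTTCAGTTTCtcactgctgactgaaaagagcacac
Ifit3, chr19:34583348-34583441, plus strand: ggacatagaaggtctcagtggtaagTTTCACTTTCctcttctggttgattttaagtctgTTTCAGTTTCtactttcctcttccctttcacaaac
Ifit3b, chr19:34607744-34607837, plus strand: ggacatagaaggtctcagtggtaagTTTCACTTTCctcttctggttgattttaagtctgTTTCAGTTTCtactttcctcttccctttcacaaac
Ifit1bl1, chr19:34602038-34602097, minus strand: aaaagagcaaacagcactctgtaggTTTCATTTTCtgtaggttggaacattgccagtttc
Ifit1, Ifit3 and Ifit3b each held 2 matches in the window, and the first of each pair had the same letters, as did the second. The stretches of Ifit3 and Ifit3b were identical. When their 300-base windows were aligned, 260 bases stood opposite each other outside gaps, and 99.2% of these were identical. Ifit1bl2 starts on the other strand so close to Ifit1 that their windows share 245 bases, and its 2 matches are those of Ifit1 read from the other side. The window at another annotated start of Ifit1bl2 held none. Ifit1bl1 held 1 match, 104 to 95 bases before its start, and another of its annotated starts also held 1. Neither of the windows at the annotated starts of Ifit2 held a match, which says only that these letters are not within them. Over all 32851 windows of this length, 3.44% held at least 1 match and 0.225% held 2 or more. The letters TTCNNNGAA, the core of the gamma-activated site, which reads the same on both strands, were found for the family only in 1 window of Ifit2, and in 8.30% of all windows. These matches describe sequence, and binding was not measured.

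The members differ in how far reads can be assigned to them. The coding sequences of Ifit3 and Ifit3b were 99.1% identical over 1209 bases, and 31.7% of the 100-base windows of the Ifit3 transcript also occurred in Ifit3b (51.2% of 50-base windows). Ifit1bl1 and Ifit1bl2 were 88.2% identical in coding sequence, and each was 75.8% to 76.0% identical to Ifit1. For Ifit1, Ifit1bl1 and Ifit1bl2, 3.29%, 0.524% and 2.91% of 100-base windows occurred in another gene, and for Ifit2 none of 3719 did. How the authors' counting treated reads that fit several genes is not given in the sources used here, so the split between Ifit3 and Ifit3b is uncertain.

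Several features of the libraries bear on all values. Totals ran from 29808243 to 45828565 counts per library. Trex1 had 0 counts in every library, so the genotype could not be checked from it. The cell type label describes sorted cells that lack CD45 and CD31, while the protocol words the sort as cells negative for either. The gene for CD45, Ptprc, ran from 0.158 to 1.54 CPM (counts per 1000000, TMM-scaled) in 5 Ctrl libraries and from 159 to 345 CPM in 5 iKO libraries, with 15.6 CPM in Ctrl 5 and 17.4 CPM in iKO 1. Pecam1, the gene for CD31, was at 4.18 ± 0.705 CPM in Ctrl and 10.9 ± 3.72 CPM in iKO (SD, n = 6 each; edgeR, adjusted p = 0.000565). Pecam1 was 1 of 8 tested endothelial markers, of which 3 were called higher, against 25.0% of all tested genes. The other 5 were not called, and the median log2 fold change of the 8 was 0.26. A leukocyte score, the mean log2 CPM of 12 marker genes, was -0.78 to 0.93 in 5 Ctrl libraries, 3.67 in Ctrl 5, 3.50 in iKO 1 and 6.43 to 7.27 in the 5 other iKO libraries. All 12 of these markers were higher in iKO, as were 12 of 12 tested T and NK cell markers and 10 of 12 macrophage and monocyte markers; of 8 pigment cell markers 6 were lower and none was higher (edgeR quasi-likelihood test, adjusted p under 0.05), against 25.0% of all tested genes higher and 21.4% lower. The summed leukocyte markers ran from 41.7 to 216 CPM in Ctrl and from 186 to 2378 CPM in iKO, and none of the 12 was at 0 throughout Ctrl; pigment cell markers summed to at least 15213 CPM in every library. Xist was at 219 CPM in iKO 2 and 117 CPM in iKO 3, and 4 Y-linked genes summed to 44 and 0 counts there, although the labels give male hosts. The Y-linked sum was 107 to 254 counts in the Ctrl libraries, 239 in iKO 1 and 1298 to 1513 in iKO 4 to 6. The labels do not tie libraries to mice, and tumours were placed on both legs, so p-values measure only the spread between libraries.

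All 6 Ifit genes were higher in iKO than in Ctrl, and in each of them every iKO library lay above the highest Ctrl library. Calls are those of edgeR's quasi-likelihood test over 16164 tested genes, with Benjamini-Hochberg adjusted p under 0.05. Against these 6 of 6 stand 25.0% of all tested genes that were called higher in iKO, and 11.8% whose groups did not overlap with iKO higher. Ifit1, Ifit2, Ifit3 and Ifit3b passed the count filter in both groups. Ifit1bl1 and Ifit1bl2 reached the filter's level in all 6 iKO libraries but only in 2 and 3 Ctrl libraries, so they were tested because of their level in iKO; without the filter all 6 were also called, against 14.1% of 29337 genes higher. In these bulk libraries, more cells that express a gene and more RNA per cell cannot be told apart.

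**Figure D1:**
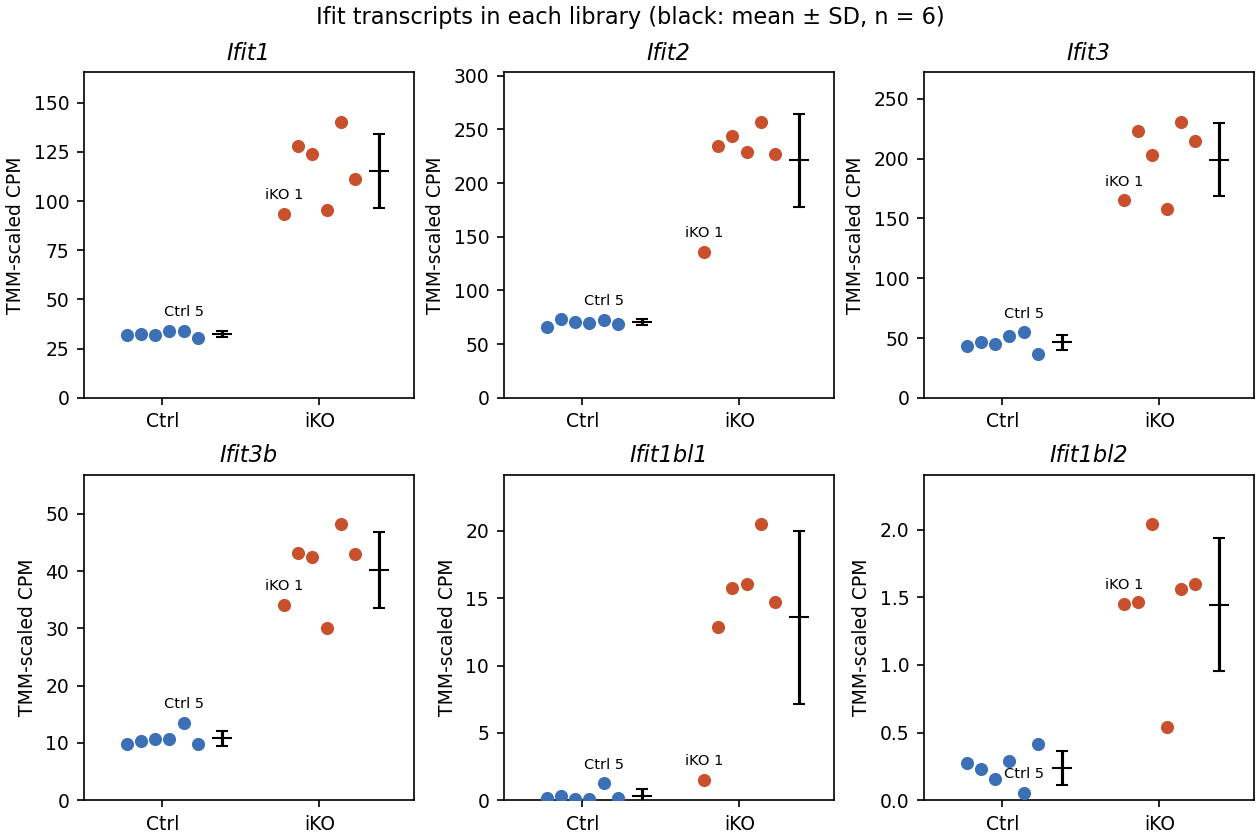
TMM-scaled CPM (vertical axis, from 0) of each Ifit gene in the 6 Ctrl (blue) and 6 iKO (orange) libraries, with the group mean ± SD in black and Ctrl 5 and iKO 1 named. Every iKO point lies above every Ctrl point, and in Ifit1bl1 iKO 1, at 1.52 CPM, lies near Ctrl 5, at 1.27 CPM.

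Ifit1 (ENSMUSG00000034459, mm10, chromosome 19, 34640871 to 34650009, plus strand), the cap-sensing member, ran from 30.3 to 34.2 CPM in Ctrl (median 32.3) and from 93.4 to 140 CPM in iKO (median 118). The Ctrl libraries were nearly alike, and the lowest iKO libraries were iKO 1 and iKO 4. The mean was 32.5 ± 1.45 CPM in Ctrl and 115 ± 18.7 CPM in iKO (SD, n = 6 each). Ifit1 thus rose 3.55-fold, or 1.83 ± 0.10 on the log2 scale (SE; edgeR, adjusted p = 1.33e-08).

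Ifit2 (ENSMUSG00000045932, chromosome 19, 34550694 to 34576419, plus strand) ran from 66.4 to 73.9 CPM in Ctrl (median 70.1) and from 136 to 257 CPM in iKO (median 232). Within iKO, 5 libraries lay between 227 and 257 CPM and iKO 1 stood apart at 136 CPM. Group means were 70.4 ± 2.69 CPM in Ctrl and 221 ± 43.3 CPM in iKO (SD, n = 6 each). The rise of 1.65 ± 0.12 on the log2 scale was the smallest among the 6 members (edgeR, adjusted p = 4.12e-07).

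Ifit3 (ENSMUSG00000074896, chromosome 19, 34583531 to 34588731, plus strand) ran from 37.0 to 54.9 CPM in Ctrl (median 45.7) and from 158 to 231 CPM in iKO (median 209). The lowest iKO library was iKO 4, with iKO 1 next at 165 CPM, and the highest Ctrl library was Ctrl 5. With means of 46.5 ± 6.37 CPM in Ctrl and 199 ± 30.5 CPM in iKO (SD, n = 6 each), Ifit3 rose 4.28-fold, or 2.10 ± 0.12 in log2 units (edgeR, adjusted p = 2.49e-08). Its copy Ifit3b (ENSMUSG00000062488, 34607970 to 34613401, plus strand) ran from 9.87 to 13.5 CPM in Ctrl (median 10.5) and from 30.1 to 48.2 CPM in iKO (median 42.7). The order of libraries was like that of Ifit3, with iKO 4 and iKO 1 lowest in iKO and Ctrl 5 highest in Ctrl. Means were 10.8 ± 1.35 and 40.2 ± 6.70 CPM (SD, n = 6 each), and Ifit3b rose by 1.90 ± 0.12 in log2 units (edgeR, adjusted p = 6.07e-08).

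Ifit1bl1 (ENSMUSG00000079339, chromosome 19, 34592888 to 34601968, minus strand) behaved unlike these 4. It had 2 to 12 counts in 5 Ctrl libraries but 46 in Ctrl 5, and 402 to 695 counts in 5 iKO libraries but 47 in iKO 1. In CPM this was 0.0583 to 0.280 in 5 Ctrl libraries, 1.27 in Ctrl 5, 1.52 in iKO 1 and 12.8 to 20.5 in the others. Means were 0.329 ± 0.467 and 13.6 ± 6.43 CPM (SD, n = 6 each). The rise was 5.38 ± 0.85 in log2 units (edgeR, adjusted p = 0.000515), and 6.55 without Ctrl 5.

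Ifit1bl2 (ENSMUSG00000067297, chromosome 19, 34617049 to 34640743, minus strand) was the rarest member, with 2 to 19 counts in each Ctrl library and 16 to 72 in each iKO library. It ran from 0.0552 to 0.416 CPM in Ctrl (median 0.256) and from 0.543 to 2.04 CPM in iKO (median 1.52). The lowest Ctrl library was Ctrl 5 and the lowest iKO library iKO 4, so its order of libraries differed from that of Ifit1bl1. Means were 0.239 ± 0.123 and 1.45 ± 0.492 CPM (SD, n = 6 each), and Ifit1bl2 rose by 2.57 ± 0.41 in log2 units (edgeR, adjusted p = 0.000264).

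Per kilobase of gene length, the level of Ifit3 was highest, at 26.6 ± 3.65 CPM per kb in Ctrl and 114 ± 17.5 in iKO (SD, n = 6). Ifit2 followed at 17.9 ± 0.685 and 56.3 ± 11.0, Ifit1 at 12.2 ± 0.546 and 43.4 ± 7.04, and Ifit3b at 5.40 ± 0.674 and 20.1 ± 3.35 CPM per kb. In Ctrl this order held in each of the 6 libraries. In iKO, Ifit2 was above Ifit1 in 5 of 6 libraries, and in iKO 1 the levels were 34.6 and 35.2 CPM per kb. Ifit1bl1 and Ifit1bl2 did not differ beyond their spread in Ctrl, at 0.145 ± 0.205 and 0.0709 ± 0.0366 CPM per kb, whereas in iKO Ifit1bl1 was higher in all 6 libraries, at 5.97 ± 2.83 against 0.429 ± 0.146. Summed over the family, the level was 62.4 ± 5.18 CPM per kb in Ctrl and 240 ± 37.9 in iKO. Of this sum Ifit3 made up 42.5% in Ctrl and 47.6% in iKO, Ifit2 28.8% and 23.4%, Ifit1 19.6% and 18.1%, Ifit3b 8.65% and 8.37%, and Ifit1bl1 0.218% and 2.40%.

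The members did not all rise by the same amount. For each of the 15 pairs, the log2 ratio of both genes was taken in each library and its group means were compared. The exact permutation test was two-sided and used the 924 ways to assign 6 of 12 libraries to iKO, with p adjusted over the 15 pairs, and cannot give a p below 0.00216. The ratio differed between groups in 8 pairs. Ifit3 rose more than Ifit1, by 0.28 on the log2 scale (adjusted p = 0.0130), and more than Ifit2, by 0.47 (adjusted p = 0.0162). Ifit3 also rose more than its copy Ifit3b, by 0.21 (adjusted p = 0.0186), a difference that rests on how reads shared by the copies were counted. Ifit1bl1 rose more than Ifit1, Ifit2, Ifit3 and Ifit3b, by 3.59, 3.78, 3.31 and 3.52 (for each, exact permutation test, adjusted p = 0.0130), and more than Ifit1bl2, by 3.01 (adjusted p = 0.0487). The last call was lost in 9 of the 12 comparisons that left out 1 library (adjusted p of 0.0528 to 0.0731), and the difference was 3.74 without Ctrl 5. Ifit1bl1 and Ifit1bl2 entered these pairs because of their level in iKO. Their Ctrl counts were low, so the sizes depend on the prior count of the log2 values. The ratio of Ifit1 over Ifit1bl1 changed by -3.92 with a prior count of 0.5 and by -3.14 with 5. Ifit1 and Ifit3b differed least, with the ratio of Ifit1 over Ifit3b at 1.59 ± 0.13 in Ctrl and 1.52 ± 0.10 in iKO (SD, n = 6, exact permutation test, adjusted p = 0.366). For that pair and the 6 others above the threshold, the test does not show that the members rose alike. With the libraries of the same number taken as pairs, none of the 15 ratios passed and 7 did before adjustment, in an exact sign-flip test that cannot give a p below 0.0312.

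Ctrl 5 and iKO 1 had nearly the same leukocyte score, 3.67 and 3.50, and nearly the same Ptprc level, with a ratio of iKO 1 to Ctrl 5 of 1.12 (95% counting interval 0.991 to 1.26). Markers of single cell types were not matched. In Ctrl 5 and iKO 1, macrophage and monocyte markers summed to 502 and 282 CPM and neutrophil markers to 6.04 and 1.39 CPM. T and NK cell markers went the other way, at 11.0 and 19.5 CPM. Set side by side, these 2 libraries were apart in 5 members and close in 1. This pair was picked after its values were seen, it has 1 library per group and therefore no replicate check, and the intervals cover counting error only. The ratio of iKO 1 to Ctrl 5 was 2.75 for Ifit1 (2.57 to 2.94), 1.87 for Ifit2 (1.78 to 1.96), 3.00 for Ifit3 (2.85 to 3.16) and 2.53 for Ifit3b (2.27 to 2.83). For Ifit1bl2 it was 26.4, from 2 and 45 counts (6.88 to 224). For Ifit1bl1 it was 1.20 (0.780 to 1.84), from 46 and 47 counts.

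**Figure D2:**
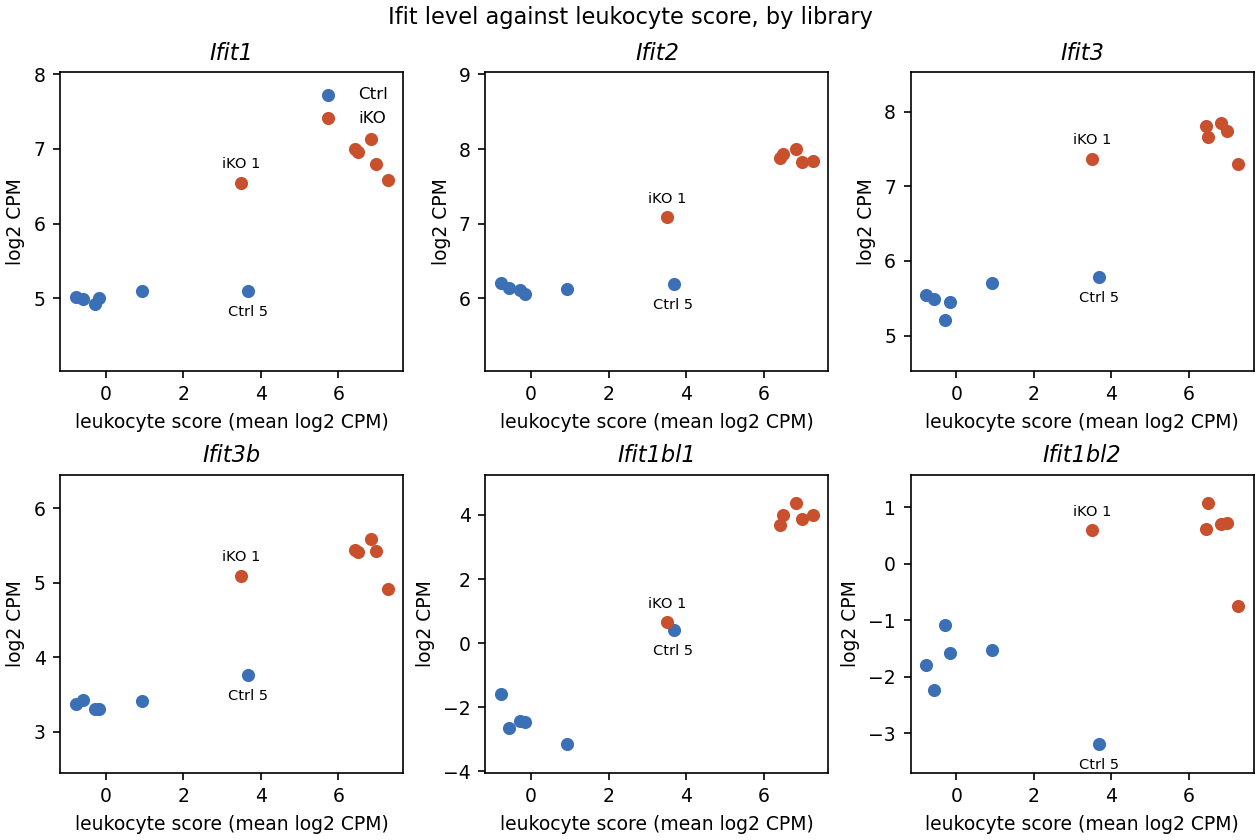
Log2 CPM of each Ifit gene (vertical axis, prior count 2) against the leukocyte score of the library (horizontal axis, mean log2 CPM of 12 markers) for the 6 Ctrl (blue) and 6 iKO (orange) libraries. At scores of 3.67 and 3.50, Ctrl 5 and iKO 1 lie apart in all members except Ifit1bl1.

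Within each group the same 2 libraries can be set against the rest. Ctrl 5 held 1.06 times the mean of the other Ctrl libraries for Ifit1, 1.04 times for Ifit2, 1.23 times for Ifit3 and 1.31 times for Ifit3b, against 9.01 times for Ifit1bl1, 0.200 times for Ifit1bl2 and 25.4 times for Ptprc. iKO 1 held 78.0% of the mean of the other iKO libraries for Ifit1, 57.0% for Ifit2, 80.1% for Ifit3, 82.4% for Ifit3b and 101% for Ifit1bl2, against 9.50% for Ifit1bl1 and 7.68% for Ptprc. In a fit that had the leukocyte score as a covariate, 5 of the 6 members were still called higher in iKO, against 5.92% of all tested genes. Their log2 fold changes were then 1.55 ± 0.21 for Ifit1, 1.09 ± 0.25 for Ifit2, 1.64 ± 0.22 for Ifit3, 1.45 ± 0.23 for Ifit3b and 3.99 ± 1.05 for Ifit1bl2 (edgeR, adjusted p of 0.00101 to 0.0252). That of Ifit1bl1 was 0.94 ± 0.76, without a call (edgeR, adjusted p = 0.485). Without the covariate the value of Ifit1bl2 was 2.57. Ifit1bl2 had 2 counts in Ctrl 5 and, like Ifit1bl1, was tested because of its level in iKO. The covariate fit leans on Ctrl 5 and iKO 1, the only libraries in which the groups had like scores. With both of them left out, a choice made after the data were seen, all 6 members were called (27.0% of all genes were called higher), at 1.92 for Ifit1, 1.79 for Ifit2, 2.22 for Ifit3, 2.03 for Ifit3b, 6.78 for Ifit1bl1 and 2.39 for Ifit1bl2. Without iKO 2 and iKO 3 all 6 were called as well (21.6% of all genes higher), at log2 fold changes from 1.59 for Ifit2 to 5.34 for Ifit1bl1.

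The genes next to the family did not move as 1 block. Within 250 kb of the cluster stand 5 other protein-coding genes. Ch25h, which encodes an interferon-inducible cholesterol hydroxylase, had means of 0.400 ± 0.576 CPM in Ctrl and 12.4 ± 7.89 CPM in iKO (SD, n = 6 each). It rose by 4.98 ± 0.86 in log2 units (edgeR, adjusted p = 0.000915), and by 6.22 without Ctrl 5, which held 57 of its 91 Ctrl counts. Of the exon bases of Ch25h, 11.5% are shared with Gm26902 on the other strand. Lipa, the lysosomal acid lipase and the nearest neighbour of Ifit2 outside the family, rose by 0.55 ± 0.07, Fas, a death receptor, rose by 2.46 ± 0.57, and Pank1, a kinase of coenzyme A synthesis, changed by -0.63 ± 0.13 (edgeR, adjusted p of 3.05e-05, 0.00359 and 0.00114). Slc16a12, a transporter that follows Ifit1, had 33 counts in Ctrl and 27 in iKO and was not tested. With the leukocyte score as covariate Lipa was still called (0.53), while Ch25h (0.33), Fas (-0.18) and Pank1 (-0.17) were not.

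**Figure D3:**
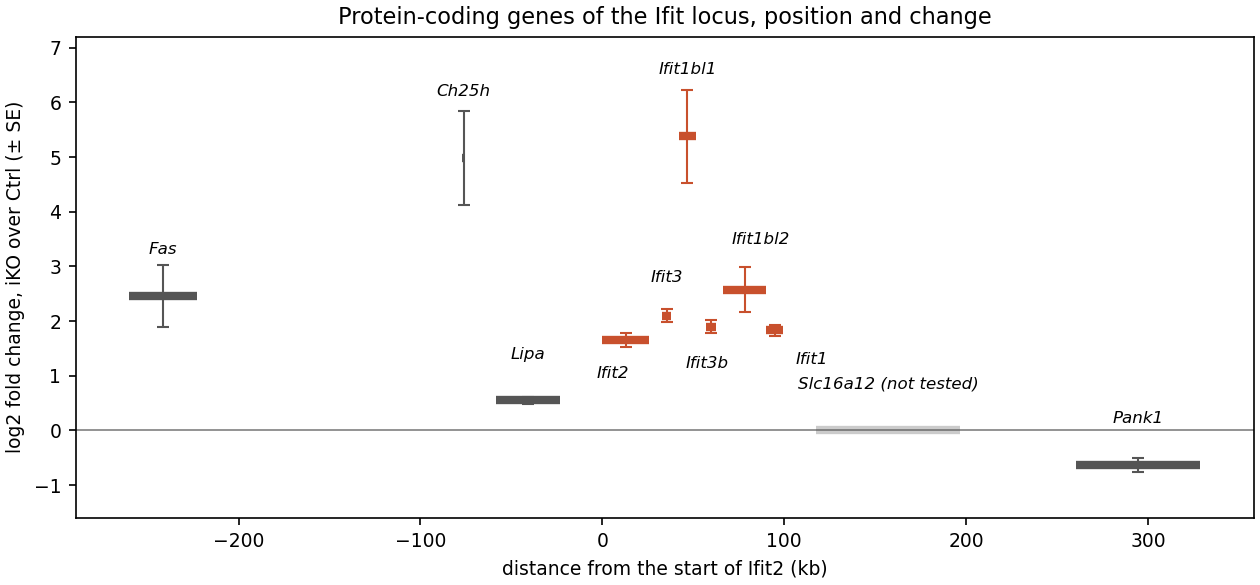
Log2 fold change of iKO over Ctrl (vertical axis, ± SE) of the protein-coding genes around the Ifit cluster, each drawn as a bar over its span at its distance in kb from the start of Ifit2 (horizontal axis); Ifit genes are orange and Slc16a12, not tested, is pale at 0. Ifit1bl1, at 5.38, lies far above its neighbours Ifit3 and Ifit3b, at 2.10 and 1.90.

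Genes that stand before the Ifit genes in the pathway were looked at by role. Of 18 type I interferon genes, 14 had 0 counts in all libraries. Ifnb1, which encodes interferon beta, had 2 counts in Ctrl, both in Ctrl 5, and 122 in iKO. The ratio of both was 76.4, with a 95% counting interval of 20.7 to 638 that covers counting error only, not the spread between libraries. Without Ctrl 5, Ifnb1 was at least 43.4-fold higher, with 3 counts over the group as the floor. Like the interval, this bound treats each count as a separate read and leaves out the spread between libraries. It would be lower if counts came in pairs. The iKO counts of Ifnb1 were 8, 6, 14, 52, 28 and 14 in iKO 1 to 6, so every iKO library held more than any Ctrl library. It fell below the count filter; without the filter it was called (edgeR, adjusted p = 8.86e-05). Ifna4, Ifnab and Ifnz had 0, 4 and 10 counts in Ctrl and 2, 6 and 5 in iKO.

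Among the genes from the receptor to ISGF3 that are given here, Ifnar1 rose least. The receptor chains rose, Ifnar1 by 0.28 ± 0.06 and Ifnar2 by 0.59 ± 0.09, and the kinases Jak1 and Tyk2 rose by 0.58 ± 0.06 and 0.65 ± 0.10. Of the subunits of ISGF3, Stat2 rose by 2.11 ± 0.15 and Irf9 by 1.27 ± 0.08 (edgeR, adjusted p of at most 0.00228 for these 6 genes). With the leukocyte score as covariate Jak1, Stat2 and Irf9 were still higher, and Ifnar1, Ifnar2 and Tyk2 were not called. The share of all tested genes called higher was 25.0%, and 5.92% with that covariate.

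Among 10 tested genes that lead from sensed nucleic acid to interferon, 8 rose, with a median log2 fold change of 1.06, against a median of 0.02 over all tested genes and 25.0% of them called higher. The RNA sensors Ddx58, Ifih1 and Dhx58 rose by 1.57 ± 0.06, 1.98 ± 0.08 and 2.46 ± 0.15, and the factor Irf7, which drives interferon genes, by 3.60 ± 0.31 (edgeR, adjusted p of at most 1.13e-05). With that covariate 4 of the 10 were higher, against 5.92% of all tested genes. Of 8 genes listed for feedback on the pathway 7 rose and 1 fell, with a median of 1.35. Usp18, which holds back the receptor, rose by 2.08 ± 0.11 and Isg15, a ubiquitin-like modifier, by 2.22 ± 0.12. Socs3 rose by 1.32 ± 0.11 and Socs1 by 2.52 ± 0.29. In the covariate fit 3 of the 8 were higher, against the same 5.92%.

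The Ifit genes were then set beside other effectors. All 28 listed antiviral effectors outside the family rose, with a median of 1.85, close to the 1.83 of Ifit1, and 25 were higher with the leukocyte score as covariate. Over all tested genes 25.0% were called higher, and 5.92% with that covariate. The lists were chosen with earlier results of these data known, so their counts are a description and no independent support. Rsad2, an antiviral enzyme, rose by 1.94 ± 0.07, Parp12, an ADP-ribosyltransferase, by 1.69 ± 0.08, Xaf1, which is linked to cell death, by 1.99 ± 0.09, and Cmpk2, a nucleotide kinase, by 1.86 ± 0.09 (edgeR, adjusted p of at most 8.92e-09). Of 13 tested genes of interferon gamma, its receptor and its targets 12 rose, with the median of the 13 at 2.01. The GTPases Irgm1 rose by 1.75 ± 0.10, Gbp2 by 2.32 ± 0.13, Irgm2 by 1.93 ± 0.13 and Igtp by 2.01 ± 0.15, and 6 were higher with the covariate. The effector list shares Isg15 with the genes listed for feedback. In Ctrl the effectors summed to 1258 to 1358 CPM, highest in Ctrl 5. In iKO they summed to 3258 to 4462 CPM, lowest in iKO 1. The 14 listed interferon gamma genes summed to 603 to 670 CPM in Ctrl and 1639 to 3017 CPM in iKO. Again Ctrl 5 was highest in Ctrl and iKO 1 lowest in iKO. The part of the leukocyte score in these levels was not tested beyond the covariate.

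No gene listed for the RNA and protein partners of Ifit proteins was called higher, against 25.0% of all tested genes, and 21.4% of all were called lower. Of 5 tested genes that make or methylate the cap, which decides what Ifit1 binds, none was higher and 1 was lower: Rnmt, the cap guanine methyltransferase, changed by -0.19 ± 0.06 (edgeR, adjusted p = 0.0229, 0.0688 without Ctrl 4 and 0.354 with the leukocyte score as covariate). A share of 1 in 5 is near that of all genes. Of 14 subunits of eIF3, 8 were lower and none was higher, with a median of -0.19. Eif3i changed by -0.30 ± 0.07, Eif3l by -0.24 ± 0.06, Eif3b by -0.23 ± 0.06 and Eif3m by -0.21 ± 0.07 (edgeR, adjusted p of 0.00217 to 0.0153), and the call of Eif3m was lost without Ctrl 4 (0.0640). When the leukocyte score was a covariate, 3 of the 14 subunits were lower, Eif3f, Eif3i and Eif3k (chosen after their values were seen), against 6.15% of all tested genes, and Eif3l, Eif3b and Eif3m lost their calls (edgeR, adjusted p of 0.281 to 0.363).

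**Figure D4:**
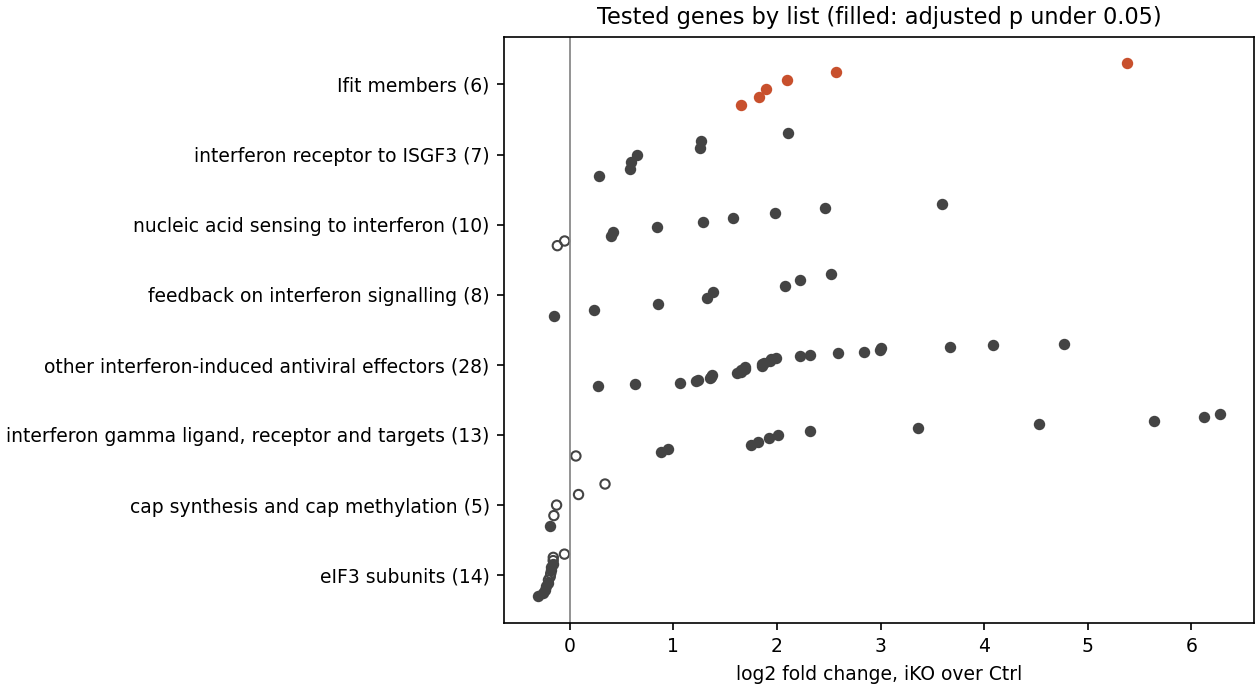
Log2 fold change of iKO over Ctrl (horizontal axis) of each tested gene, by list (vertical axis, number tested in brackets), filled where the edgeR adjusted p is under 0.05; Ifit genes are orange. Genes of the interferon lists lie mostly right of 0 and the 14 eIF3 subunits lie left of it.

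Finally, the genes whose profile over the 12 libraries was most like that of the family were taken as those with the smallest root mean square difference between log2 CPM values, each centred on its own mean, among 12637 protein-coding genes. For the mean profile of the 6 members these were Dhx58 (0.18), Il18bp (0.19), Parp14 (0.20), Phf11d (0.21), Tap1 (0.22), Isg15 (0.22), Gbp2 (0.23) and Oasl2 (0.23 log2 units). That mean includes Ifit1bl1, with its larger rise. The listed genes rose by 2.22 to 2.84 in log2 units, against 1.65 to 2.10 for Ifit1, Ifit2, Ifit3 and Ifit3b. Nearest genes were picked on profiles over both groups. Their rises, also those near single members below, follow from that choice and are no independent support. Single members, compared after the data were seen, had different nearest genes. Usp18 was nearest to Ifit3 (0.088), Cmpk2 to Ifit1 (0.10), Trim25 to Ifit2 (0.11) and Ube2l6 to Ifit3b (0.12). Ifit1bl1 lay nearest to Itgb7 (0.30), Trpm2 (0.35), Treml2 (0.42) and Ifng (0.43), with log2 fold changes of 5.03 to 6.27. Without Ctrl 5 these were 6.50 for Itgb7 and 7.32 for Treml2, with Trpm2 between them, and Ifng then had 0 counts in the 5 Ctrl libraries. Ifit1bl2, at its low counts, had no close neighbour, with Iigp1 nearest at 0.57. Among the members themselves, Ifit1 and Ifit3b were closest (0.11) and Ifit1bl1 was 2.00 to 2.19 from each of the others.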

How the data were processed

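Poly(A)-selected RNA was sequenced without strand information from 12 libraries of sorted tumour cells, per the labels' protocols. The deposited values were raw read counts per Ensembl gene, with mm10 as the build named in the submitters' processing notes, and with aligner, counter and versions not given in the sources used here. Coordinates of genes are those of the deposited table, exons are from GENCODE M21, and promoters from RefSeq (GRCm38.p6). Groups follow the sample titles. Counts were analysed with edgeR 4.0.16 in R 4.3.3 (minimum count 10, minimum total 15, TMM, robust quasi-likelihood fit with group as the only term, all 12 libraries, Benjamini-Hochberg over 16164 genes, threshold 0.05). Each SE is the size of the log2 fold change divided by the root of the quasi-likelihood F. Log2 CPM used a prior count of 2. Alternatives were DESeq2 1.42.0, limma 3.58.1 (voom), other scalings and filters, a replicate term, the leukocyte score as covariate and omitted libraries.

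No pair of libraries within a group was alike within sampling noise (chi-square per degree of freedom of at least 7.47 in 30 pairs). Libraries with the same number share only that number: their deviations from the group means correlated at -0.13 to 0.25 over 16164 genes. In simulated counts for iKO against Ctrl (16164 genes), the test recovered 35.1% of 74 genes changed by 0.5, 77.4% of 62 changed by 1 and 90.6% of 64 changed by 2 on the log2 scale, with 5 false calls. Coding sequences were aligned with Biopython 1.88. Ifit genes were named by symbol; further genes were those from the receptor to ISGF3 (1 is not reported here), ligands with a count, up to 4 per other list with the smallest p, neighbours within 250 kb, and the 8 nearest profiles. The members and lists were chosen with earlier results of these data known.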

Additional observations from a re-analysis of the deposited data

Results flagged for a closer look

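In groups of 6 libraries, 16 sets of values were checked for 1 library far from the others by Dixon's ratio (the gap to the nearest library over the range, against its 95% critical value), and chance flags about 1 in 20. Ifit1bl1 in Ctrl gave 0.816, from Ctrl 5. Ifit3b in Ctrl gave 0.775, also from Ctrl 5, at 13.5 CPM against 9.87 to 10.7 CPM in the others. Ifit2 in iKO gave 0.752, from iKO 1. The leukocyte score in iKO gave 0.777, from iKO 1 as well. Ifit1, Ifit3 and Ifit1bl2 gave no such library in either group. The part of the leukocyte score in the values of Ifit1bl1, Ifit2 and Ifit3b in these libraries was not tested beyond the covariate fit.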

How the results depend on the processing

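All 137 alternative values of the 6 log2 fold changes were above 0, and 136 were called. The exception was Ifit1bl1 with the leukocyte score as covariate (0.94, edgeR, adjusted p = 0.485). That covariate also lowered the genes called from 4037 to 957 higher and from 3464 to 994 lower, and the genes of the pathway lists called from 71 of 84 to 44. The filter of 1 CPM in 6 libraries removed Ifit1bl2, and 5 of 5 members were called. With the replicate block, all 6 members were called and 0 of 15 pairs passed the exact test, where 7 passed before adjustment. The block changed no call of a member, and of the 6 numbers only number 1 had its best match in its own number. Pairs called ran from 7 to 12 when 1 library was left out. The ratio of Ifit1bl2 over Ifit3, 0.30 and not called, reversed to -0.024 with a prior count of 5, -0.0064 without Ctrl 5 (0.52 without Ctrl 6, the highest with 1 library left out) and -0.075 without Ctrl 5 and iKO 1; the cause was not tested. The counts of Ifit1bl2, 2 to 72 per library, limit what can be said of it.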

Other observations

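Low counts were mostly even: of values from 1 to 20 in a library, 66.7% to 69.3% were even numbers, against 49.0% to 50.6% of values over 1000. The counting intervals given for Ifnb1, Ptprc and each Ifit gene treat each count as a separate read. They would be wider if counts came in pairs, and the at-least value of Ifnb1 would be lower.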
